A study of Mus musculus with 42 samples.

Results

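Sertoli cells are the somatic nurse cells of the seminiferous tubule. They surround the germ cells, build the blood-testis barrier, lay down the basement membrane on which the tubule rests, supply lactate and iron to the germ cells and answer follicle stimulating hormone and androgen. They divide until puberty and then leave the cell cycle, so markers of division and markers of maturity are commonly read side by side in cultures from young testes. Bisphenol S (BPS) is a substitute for bisphenol A in plastics and thermal paper, and is studied as an endocrine disruptor because bisphenols can bind estrogen receptors and other nuclear receptors.

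The response described here is that of primary mouse Sertoli cells exposed to 1 µM BPS, set against sister cultures that received only the ethanol (EtOH) carrier. The libraries were chosen by their titles, 3 labelled Sertoli BPS 1uM and 3 labelled as Sertoli controls, and are 6 of the 42 RNA-seq libraries of the series. The study asked whether cell types differ in their response to the same dose of BPS, and the other libraries cover granulosa cells, induced pluripotent stem cells (iPSCs) and germline cells. Both groups came from tubule cells of littermates at postnatal day 20, pooled, digested and plated into flasks that also held retinoic acid in the medium, and both went through the hypotonic shock that the study used to remove germ cells. BPS or carrier was given for 24 h in sealed flasks with gassed medium, followed by 24 h in fresh medium with neither, so that the RNA was taken a day after exposure ended. No source ties a library to a separate animal, so the replicates are flasks of a common pool and the p-values measure the spread between flasks.

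Poly(A) RNA was sequenced with strand information, and the values are reads scaled to library size (CPM, the usual unit) that the authors had scaled by TMM and put on a log2 scale. Whole reads could be recovered for every gene, with totals of 30203931 to 32656557 reads in the BPS libraries and 28870702 to 32277152 reads in the vehicle libraries. The squared differences between replicate libraries of either group were 2.92 to 5.66 times what counting alone gives, measured as the mean chi-square per gene. No library was therefore a copy of another. On the first 2 principal components, which held 29.6% and 27.9% of the variance of the 500 most variable genes, the groups were not separated on either axis alone.

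Of the markers that define the cells, Sox9, the transcription factor that sets Sertoli fate, was at 322, 336 and 347 CPM in the BPS libraries, against 332, 331 and 345 CPM in the vehicle libraries. Clu, which encodes the secreted chaperone clusterin, was at 3281, 3846 and 3908 CPM in the BPS libraries, against 4354, 4552 and 4307 CPM in the vehicle libraries. Dhh, the hedgehog ligand that Sertoli cells send to the interstitium, was at 248, 262 and 279 CPM in the BPS libraries, against 279, 289 and 289 CPM in the vehicle libraries. These 3 genes fit the label in every library. Amh, the anti-Müllerian hormone that falls as Sertoli cells mature, was low, at 3.70, 5.01 and 6.57 CPM in the BPS libraries and 7.94, 9.12 and 5.39 CPM in the vehicle libraries. Rhox5, an androgen-driven homeobox gene of mature Sertoli cells, did not exceed 0.558 CPM in any of the 6, and the follicle stimulating hormone receptor Fshr lay between 3.74 and 4.28 CPM in the BPS libraries and between 3.31 and 4.67 CPM in the vehicle libraries, so the cultures carried Sertoli identity genes with little RNA of these hormone-driven ones.

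Many genes differed by small amounts between BPS and vehicle cells. At 1 µM, most listed genes of mitosis, most ribosomal protein genes and the small neuronal RNA Bc1 were higher than in vehicle, whereas some collagen and laminin genes, several secreted Sertoli products and the germ cell gene Dazl were lower. Of 15648 genes with at least 0.5 CPM in at least 3 libraries, 820 (5.24%) had an adjusted p of 0.05 or less in limma and are called DEGs here. Of these, 588 (3.76% of the genes tested) were higher in BPS cells and 232 (1.48%) were lower. With edgeR at the same threshold the study itself reported far fewer DEGs in Sertoli cells, and in granulosa cells. The term here therefore does not stand for the study's set. The median size of a DEG's change was 0.18 on the log2 scale, and only Pramel13, Ccl27b, Dok2 and Olfml1 changed at least 2-fold. All 4 were lower, at no more than 0.527 CPM in any BPS library, against 0.657 to 1.30 CPM in the vehicle libraries. They lie near the filter of 0.5 CPM in at least 3 libraries and met it largely through the vehicle libraries. Their shared direction is therefore partly set by the filter. The groups did not overlap for 790 of the 820 DEGs, and for 25.6% of all genes tested (16% higher and 9.68% lower). The direction of the calls depended on how the libraries were scaled. As deposited, 71.7% of DEGs were higher (588 higher and 232 lower), whereas the share was 56.7% (377 and 288) after scaling by median ratios and 40.4% (266 and 392) after scaling to the upper quartile, with the median log2 change of all genes at 0.0096, -0.0034 and -0.0184 under these scalings, in that order.

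Calls rested on BPS replicate 1 more than on any other library. Without it 43 genes were called, all of them also among the 820. The count was 189 without vehicle replicate 2, 285 without vehicle replicate 3 and 229 without BPS replicate 2. Without vehicle replicate 1, in contrast, 1242 genes were called, and 1028 without BPS replicate 3. In these smaller fits the remaining libraries supply the spread, and none of the 74 DEGs followed one by one changed the sign of its difference in any of them. For a gene whose groups do not overlap, leaving out a library cannot change that sign, so this was largely fixed beforehand.

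The change also followed transcript length. Across the 14039 genes with a transcript length (89.7% of those tested), the log2 change had a Spearman correlation of -0.286 with length, given as a description across genes, which are not independent replicates. Genes with transcripts of at most 500 nt had a median log2 change of 0.08, and 10.8% of them were DEGs that were higher and 0.897% were DEGs that were lower. For transcripts over 8000 nt the median was -0.06, with 0.132% higher and 8.56% lower. The gradient was present library by library. The deviation of a gene from its mean over the 6 libraries had a correlation with length of -0.181, -0.262 and -0.119 in the BPS libraries, against 0.0546, 0.177 and 0.267 in the vehicle libraries, so the groups were ordered without overlap, and vehicle replicate 1 lay closest to the BPS libraries. After each library's trend with length was taken out, 611 genes (4.35%) were called higher and 112 (0.798%) lower. The calls with a length kept under that correction were 425 of 563 higher and 102 of 216 lower. Its part in the results below was not tested, and counts after the correction are given with the gene groups described.

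**Figure D1:**
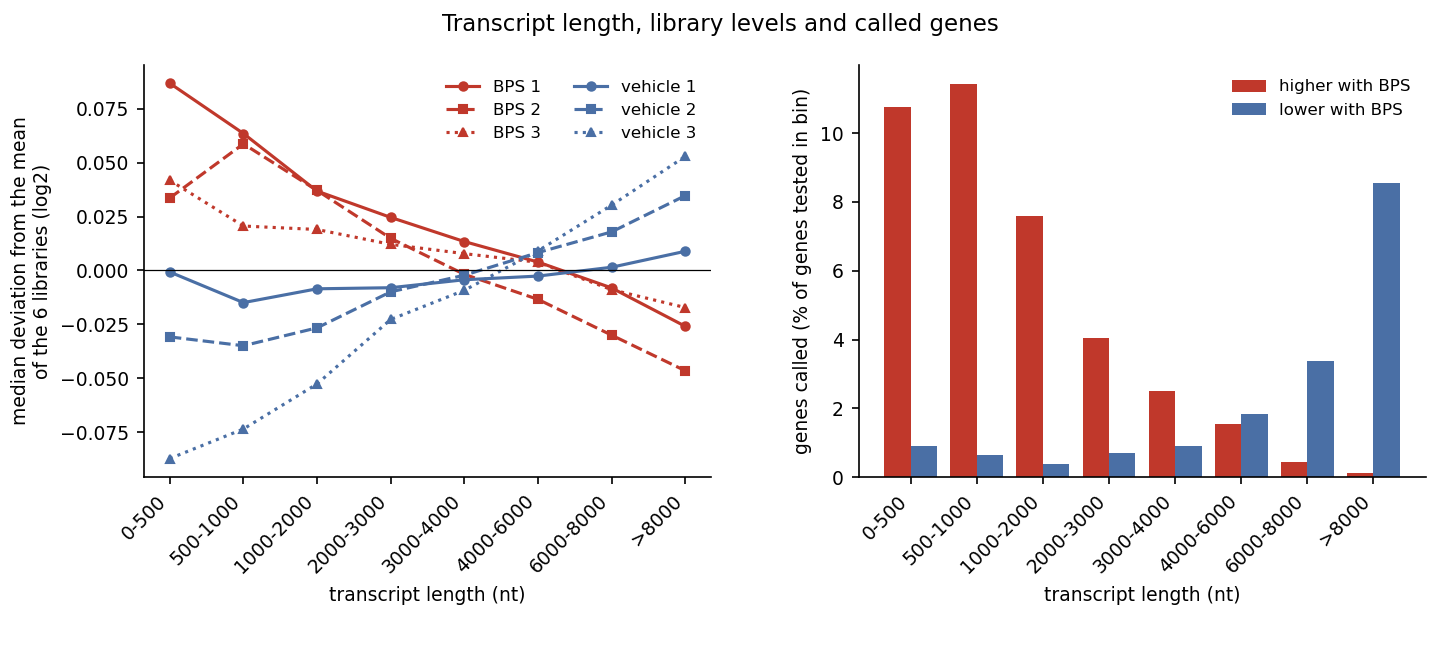
Median deviation of gene expression from the 6-library mean, on the log2 scale, for genes binned by transcript length in nucleotides, with a line for each BPS and vehicle library, and beside it the percentage of genes in each bin called higher or lower in BPS cells. Short transcripts lie above the mean in the 3 BPS libraries and below it in the vehicle libraries, and 10.8% of the genes of at most 500 nt were called higher, against 0.132% of those over 8000 nt.

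Most genes of mitosis were higher with BPS. All 19 listed genes were tested and all 19 had a positive log2 change. The test called 14 of them higher (background 3.76%) and none lower, with a list median of 0.22 beside 0.01 for all genes tested. Cdk1, the kinase that drives entry into mitosis, was at 199.5, 177 and 185 CPM in the BPS libraries, against 159, 154 and 146 CPM in the vehicle libraries. Its partner Ccnb2, a B-type cyclin, was at 96.1, 88.5 and 98.0 CPM with BPS, against 79.7, 79.9 and 76.8 CPM with vehicle. The lowest BPS library of each gene lay above the highest vehicle library, and BPS replicate 1 was the highest for Cdk1 and BPS replicate 3 for Ccnb2. The log2 changes were 0.29 (SE 0.04, adjusted p = 0.00302) for Cdk1 and 0.26 (SE 0.04, adjusted p = 0.00386) for Ccnb2.

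Ccna2, the cyclin of S phase and early mitosis, was at 179.9, 161 and 165 CPM in the BPS libraries, against 141, 140.4 and 141 CPM in the vehicle libraries, a log2 change of 0.26 (SE 0.04, adjusted p = 0.00304). Bub1, a kinase of the spindle checkpoint, was at 68.4, 61.7 and 64.7 CPM with BPS, against 53.8, 54.9 and 53.6 CPM with vehicle (log2 change 0.26, SE 0.04, adjusted p = 0.00432). The vehicle libraries of both genes lay close together, with the BPS libraries apart above them. Ube2c, the ubiquitin conjugating enzyme that works with the anaphase promoting complex, was not on the list but was among the 10 largest increases of DEGs of at least 5 CPM, at 159, 149 and 142 CPM in the BPS libraries, against 119, 119 and 118 CPM in the vehicle libraries (log2 change 0.34, SE 0.04, adjusted p = 0.000335). Birc5, the inhibitor of apoptosis protein survivin, which rides on mitotic chromosomes, was at 58.4, 49.7 and 51.8 CPM with BPS, against 43.8, 44.2 and 39.5 CPM with vehicle. Its log2 change was 0.33 (SE 0.06, adjusted p = 0.00591). The other members called were Top2a, Ccnb1, Aurka, Aurkb, Plk1, Kif11, Kif20a, Cdc20 and Tpx2, at log2 changes of 0.18 to 0.27. Mki67, Bub1b, Cenpe, Cenpf and Ttk did not pass the test, with log2 changes of 0.06 to 0.17. After the length correction 18 of the 19 were called higher. The count was 4 without BPS replicate 1 and 9 without vehicle replicate 2.

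S phase genes had the same direction. All 18 listed genes had a positive log2 change with a median of 0.19, and 9 were called higher (background 3.76%). Pcna, the sliding clamp of DNA polymerase, was at 130.5, 124 and 116 CPM in the BPS libraries, against 103, 109.7 and 100.0 CPM in the vehicle libraries (log2 change 0.25, SE 0.04, adjusted p = 0.00622). Rrm2, a subunit of ribonucleotide reductase, was at 135, 129.7 and 134 CPM with BPS, against 119.8, 115 and 113 CPM with vehicle (log2 change 0.19, SE 0.03, adjusted p = 0.00627). Neither gene's groups overlapped. The replication licensing genes Mcm2, Mcm3, Mcm5, Mcm6 and Mcm7 were called as well, together with Gins2 of the replicative helicase and the transcription factor E2f1, while Mcm4 was at a log2 change of 0.11 (adjusted p = 0.114). The length correction gave 13 calls among the 18. Without BPS replicate 1 none was, and the counts were 4 without BPS replicate 2, 4 without vehicle replicate 2 and 3 without vehicle replicate 3. Among the inhibitors and D cyclins, Cdkn2c, which restrains CDK4 and CDK6, was higher at a log2 change of 0.18 (adjusted p = 0.0335), and Ccnd2, a D-type cyclin, was lower at -0.15 (adjusted p = 0.0137). These were the 2 of 22 genes of that list called, and are named because of it. Over all genes tested 5.24% were called in either direction, and so few calls do not set this list apart. With length corrected Cdkn2c was still called (adjusted p = 0.0353), Ccnd2 was not (adjusted p = 0.0795), and Ccnd1 and Aen were called higher. Neither was called without BPS replicate 1 or vehicle replicate 2, and Cdkn2c was not called under the other 2 scalings.

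**Figure D2:**
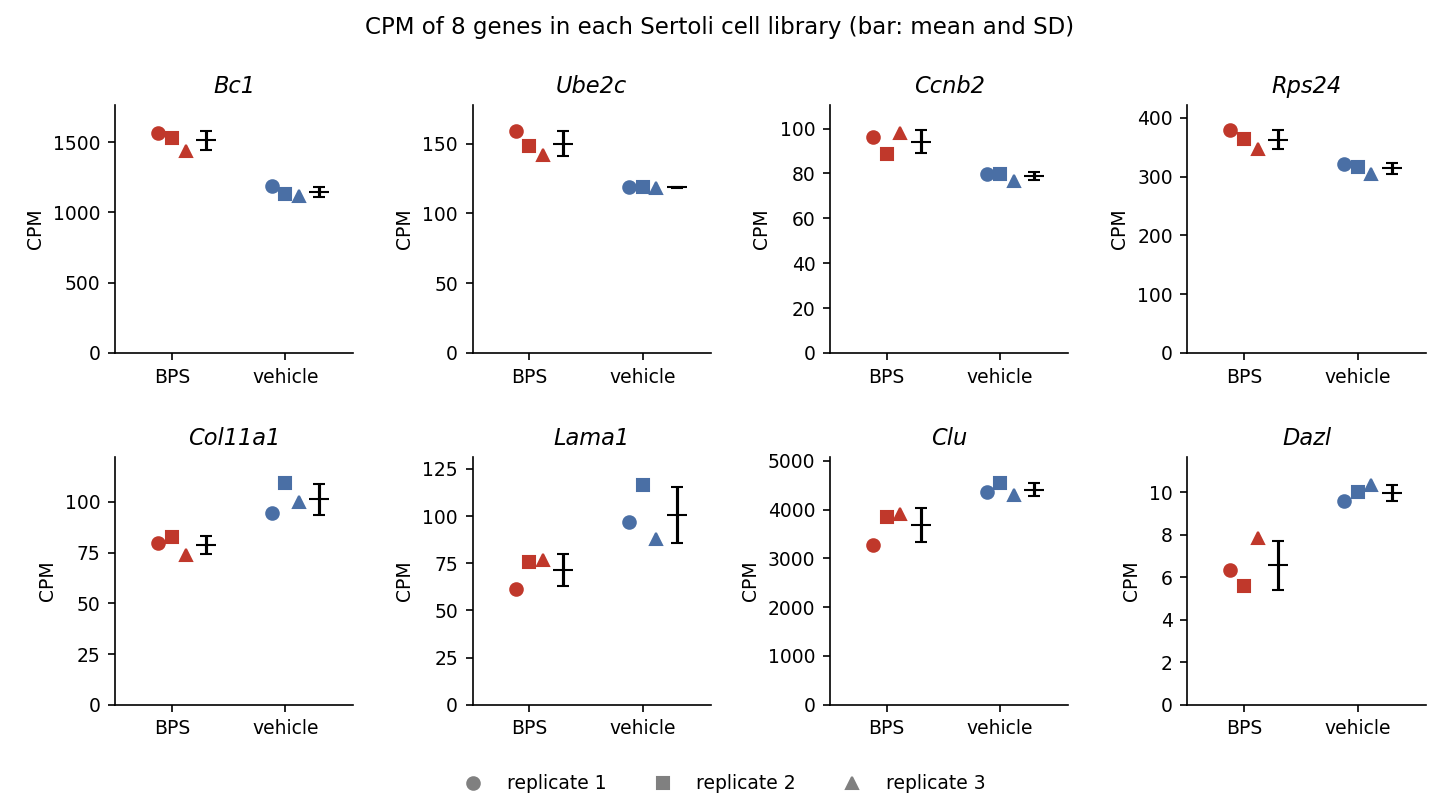
CPM in each of the 3 BPS libraries (left) and 3 vehicle libraries (right) for 8 genes, with bars at each group's mean and SD (n = 3 each) and every vertical axis starting at 0. Bc1, Ube2c, Ccnb2 and Rps24 lie higher in all BPS libraries than in any vehicle library, and Col11a1, Lama1, Clu and Dazl lie lower.

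The promoters of mitotic genes are known for pairs of CCAAT boxes at a set spacing, bound by the factor NF-Y, and for TTTGAA cell cycle homology elements. The sequences of 4 of the DEGs above are printed because they carry such pairs. Each is the run of 120 bases that ends just before the RefSeq start site, on the strand of the gene, build GRCm38.p6, with CCAAT or its reverse complement ATTGG in capitals. Ccnb1 lies at chr13:100786487-100786606 (minus strand), Ccnb2 at chr9:70421555-70421674 (minus strand), Cdk1 at chr10:69352913-69353032 (minus strand) and Aurka at chr2:172370571-172370690 (minus strand).
Ccnb1: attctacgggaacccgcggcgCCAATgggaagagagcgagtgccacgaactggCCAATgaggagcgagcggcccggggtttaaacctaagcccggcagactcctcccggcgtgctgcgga
Ccnb2: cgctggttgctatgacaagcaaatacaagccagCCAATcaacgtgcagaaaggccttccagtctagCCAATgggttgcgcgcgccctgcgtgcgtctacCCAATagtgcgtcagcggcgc
Cdk1: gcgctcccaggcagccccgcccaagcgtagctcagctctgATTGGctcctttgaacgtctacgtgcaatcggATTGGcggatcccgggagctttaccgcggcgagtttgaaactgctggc
Aurka: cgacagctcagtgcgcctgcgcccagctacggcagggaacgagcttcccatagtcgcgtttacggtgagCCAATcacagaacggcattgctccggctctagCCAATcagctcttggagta

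The first bases of neighbouring boxes were 32 bases apart in Ccnb1, Cdk1 and Aurka, and 33 bases apart, in 2 consecutive gaps, in Ccnb2. In a window of 250 bases before to 50 after the start, searched on both strands, CCAAT was found in 14 of the 15 mitosis promoters in the RefSeq table (93.3%), against 37.9% of all 27025 promoters and 38.9% of the 11611 promoters of genes tested. A pair in the same orientation with starts 30 to 35 bases apart was found in 4 of the 15 (26.7%), against 1.26% of all promoters and 2.17% of those of genes tested. TTTGAA was found in 11 of the 15 (73.3%), against 18.1% of all and 12.3% of those of genes tested. These 3 patterns were chosen after the expression values were seen. Over all DEGs with a promoter in the table, CCAAT was found in 45.8% of the 452 that were higher and 33.5% of the 161 that were lower, and the spaced pair in 5.97% and 2.48%. The core of the xenobiotic response element, GCGTG, was in 54.9% of the higher and 46.0% of the lower, against 50.1% of the genes tested, and the estrogen response element half-site GGTCA in 37.4% and 31.7%, against 37.6%. Such matches describe letters in a window and do not show that a factor binds there.

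Cytosolic ribosomal protein genes were the list with the most calls. Of 26 listed genes, 25 had a positive log2 change and 21 were called higher (background 3.76%), with a list median of 0.17. Rplp1, an acidic protein of the ribosomal stalk, was at 880.5, 879 and 831 CPM in the BPS libraries, against 747, 766 and 732 CPM in the vehicle libraries (log2 change 0.21, SE 0.03, adjusted p = 0.00376). Rps24 of the small subunit was at 379, 364 and 346 CPM with BPS, against 322, 316 and 304 CPM with vehicle (log2 change 0.21, SE 0.04, adjusted p = 0.00519). BPS replicate 1 was the highest library of both genes, and no vehicle library reached a BPS library. Rps9 and Rpl3 were called at log2 changes of 0.20 and 0.22, and Rpl10a, Rpl23, Rpl27, Rplp0 and Rps27 were not, with Rps27 the only negative value at -0.14 (adjusted p = 0.344). Ribosomal protein genes have many processed pseudogenes, so the share of reads that the authors' counting gave to each parent gene is uncertain. The transcripts are short, with a median length of 1039.5 nt, and 18 of the 26 were called after the length correction. The count was 2 without BPS replicate 1, 6 without BPS replicate 2, 11 without vehicle replicate 2 and 7 without vehicle replicate 3.

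The largest increase among DEGs of at least 5 CPM was that of Bc1, an RNA polymerase III transcript that is enriched in dendrites and represses translation in neurons. It was at 1566, 1533 and 1437 CPM in the BPS libraries, against 1189, 1134 and 1119 CPM in the vehicle libraries, and the groups lay well apart. The log2 change was 0.40 (SE 0.04, adjusted p = 2.14e-05), the log2 change of this gene passed the test without BPS replicate 1 (adjusted p = 0.000559), and it passed after the length correction (adjusted p = 0.00167). In a fit of all 42 libraries, which share 1 estimate of the spread, it did not pass (adjusted p = 0.1765). The RNA is printed because it has no poly(A) tail of its own but holds internal runs of A, and poly(A) RNA was selected for these libraries. It has 168 nt at chr7:144914470-144914637 (plus strand, GRCm38, GENCODE M21), with runs of 23 and 9 A in capitals, and the part of these runs in its level was not tested.
Bc1: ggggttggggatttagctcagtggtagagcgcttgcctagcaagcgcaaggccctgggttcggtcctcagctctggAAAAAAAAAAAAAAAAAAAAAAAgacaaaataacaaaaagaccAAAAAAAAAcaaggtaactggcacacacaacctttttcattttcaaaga
The start of this RNA is shared by the many ID repeats of rodent genomes, so reads assigned to it may come from other copies.

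The other large increases were in genes of varied roles. Sec61g, a subunit of the translocon that feeds proteins into the endoplasmic reticulum, was at 14.2, 14.0 and 13.9 CPM in the BPS libraries, against 11.4, 11.1 and 10.2 CPM in the vehicle libraries (log2 change 0.37, SE 0.08, adjusted p = 0.0119). Nup37 of the nuclear pore was at 24.1, 22.6 and 21.9 CPM with BPS, against 17.4, 19.2 and 17.6 CPM with vehicle (log2 change 0.34, SE 0.06, adjusted p = 0.00696). The groups of both genes were apart, with a narrower gap than that of Bc1. The histone gene H2ac13, the ribosomal protein gene Rps13, the phosphatase gene Cdkn3, which acts on cell cycle kinases, the spliceosome gene Snrpg and the keratin gene Krt18 completed the 10, at log2 changes of 0.31 to 0.36. When BPS replicate 1 was left out, Bc1 and Ube2c of these 10 passed, with adjusted p of 0.000559 and 0.00404, and the other 8 ranged between 0.0598 and 0.179.

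**Figure D3:**
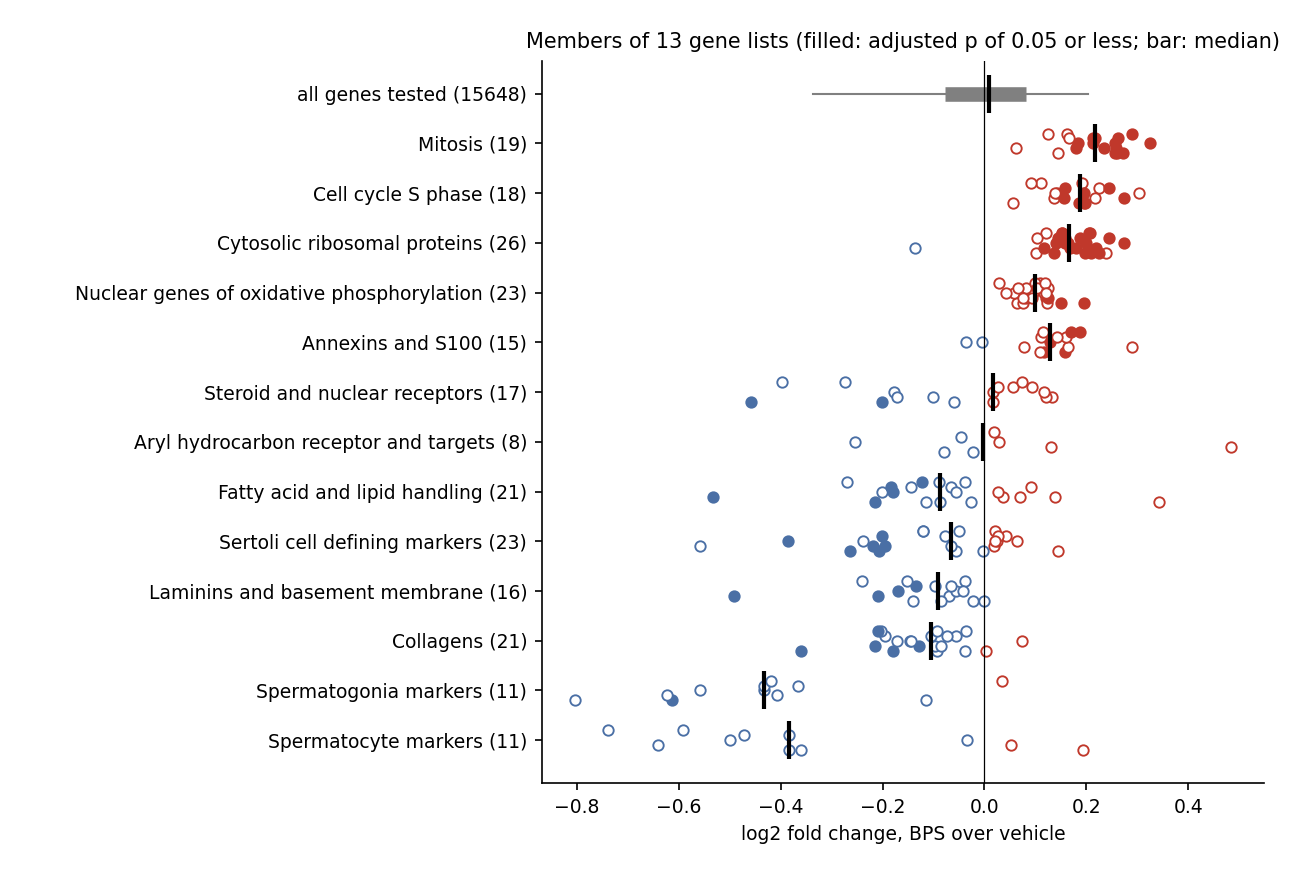
Log2 change, BPS over vehicle, of every tested member of 13 gene lists, each point a gene, filled where limma called it, with a black bar at each list's median and, in grey at the top, all genes tested (thick from percentile 25 to 75, thin from 5 to 95). All 19 mitosis genes and 25 of 26 ribosomal protein genes lie above 0, and all 16 laminin and basement membrane genes lie below it.

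Some genes of the extracellular matrix were lower. The tubule's basement membrane is built from laminins, type IV collagen, nidogen and perlecan, made by Sertoli and peritubular cells together. All 16 laminin and basement membrane genes had a negative log2 change with a median of -0.09, and 4 were called lower (background 1.48%). Lama1, the alpha chain of the embryonic and tubular laminin, was at 61.6, 75.7 and 76.9 CPM in the BPS libraries, against 97.0, 117 and 87.9 CPM in the vehicle libraries. The groups did not overlap, and BPS replicate 1 was the lowest. The log2 change was -0.49 (SE 0.08, adjusted p = 0.00432) and the gene passed without that library (adjusted p = 0.0437). Lamb2, the beta chain of mature basement membranes, was at 207, 214 and 223 CPM with BPS, against 240.3, 259 and 245 CPM with vehicle (log2 change -0.21, SE 0.04, adjusted p = 0.00521). Perlecan (Hspg2) and fibronectin (Fn1) were called at -0.13 and -0.17. Lamc1, the chain shared by most laminins, was at -0.04 (adjusted p = 0.576).

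Of 21 collagen genes, 19 had a negative log2 change with a median of -0.10, and 5 were called lower (background 1.48%). Col11a1, a fibrillar collagen chain best known from cartilage, was at 79.7, 82.9 and 73.985 CPM in the BPS libraries, against 94.6, 109 and 99.9 CPM in the vehicle libraries (log2 change -0.36, SE 0.05, adjusted p = 0.0021). Col1a1, the main fibrillar collagen of connective tissue, was at 532, 548 and 564 CPM with BPS, against 653, 634 and 621 CPM with vehicle (log2 change -0.22, SE 0.03, adjusted p = 0.00304). Neither gene's groups overlapped. Col5a1, Col12a1 and Col18a1 were also called, at -0.21, -0.13 and -0.18. The abundant type IV chains Col4a1 and Col4a2 were at -0.09 and -0.10 (adjusted p = 0.159 and 0.112). These transcripts are long, with medians of 6450 nt for collagens and 6068.5 nt for the laminin list. After the length correction 3 collagen genes (Col11a1, Col1a1 and Col18a1) and 2 laminin genes (Lama1 and Lamb2) were called. Leaving out BPS replicate 1 gave 2 collagens and 1 laminin. The counts were 2 and 2 without BPS replicate 2 and 3 and 2 without vehicle replicate 2, and 2 laminin genes were called without vehicle replicate 3. Without vehicle replicate 1, 10 collagen and 7 laminin genes were called.

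Col1a1 is also a marker of interstitial fibroblasts, and in bulk RNA fewer cells of a type and less RNA per cell cannot be told apart. All 13 tested markers of interstitial stroma had a negative log2 change with a median of -0.21. Col1a1 alone was called (background 1.48% lower), also after the length correction (3 of the 13 without BPS replicate 3 and 2 without vehicle replicate 3). Decorin (Dcn), which such cells make in quantity, was at 6.49, 7.96 and 14.1 CPM in the BPS libraries, against 22.5, 9.09 and 7.12 CPM in the vehicle libraries. The groups overlapped and the highest library was vehicle replicate 1. The stromal markers summed to 1105, 1119 and 1241 CPM with BPS, against 1395, 1279.6 and 1256 CPM with vehicle, and without Col1a1 to 574, 572 and 677 CPM, against 741, 646 and 635 CPM. Lum and Dpt, both defining markers of fibroblasts, did not exceed 0.445 CPM in any library. The part of stromal cells in the matrix result was not tested.

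Some secreted and signaling products of Sertoli cells were lower, while the factors that set the cell's identity were not called. Of 28 listed Sertoli genes, 27 were in the matrix and 23 were tested. The test called 6 lower (background 1.48%) and none higher, with a list median of -0.07. Clu, given above, had a log2 change of -0.26 (SE 0.05, adjusted p = 0.00875), and BPS replicate 1 was its lowest library. Trf, transferrin, which carries iron to the germ cells, was at 86.7, 89.7 and 88.5 CPM in the BPS libraries, against 97.1, 107 and 104 CPM in the vehicle libraries (log2 change -0.22, SE 0.04, adjusted p = 0.00658). Amhr2, the receptor for anti-Müllerian hormone, was at 31.6, 41.3 and 47.5 CPM with BPS, against 57.9, 52.8 and 45.4 CPM with vehicle. These groups overlapped by BPS replicate 3 and vehicle replicate 3, and the log2 change was -0.39 (SE 0.10, adjusted p = 0.0348). Inha and Inhbb, the subunits of inhibin B, which restrains follicle stimulating hormone in the pituitary, were called at -0.21 (adjusted p = 0.0491) and -0.20 (adjusted p = 0.0283), and the libraries overlapped for both.

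Sox9, Wt1, Gata4 and Nr5a1, transcription factors of the Sertoli and gonadal lineage, were at log2 changes of -0.0038, 0.02, 0.04 and 0.03 (adjusted p = 0.449 to 0.966). Dmrt1, which keeps the male fate, was at 0.14 (adjusted p = 0.0627), and Amh at -0.56 (SE 0.18, adjusted p = 0.078) with overlapping groups. After the length correction 5 Sertoli markers were called lower. Without BPS replicate 1 none was, and the counts were 2 without BPS replicate 2, 1 without vehicle replicate 2 and 9 without BPS replicate 3. Summed over the list, Sertoli markers came to 8548, 9346 and 9625 CPM in the BPS libraries, against 10035, 10258 and 9944 CPM in the vehicle libraries. Without Clu the sums were 5268, 5499 and 5717 CPM, against 5681, 5706 and 5637 CPM, which overlapped.

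Hormone and xenobiotic receptors were looked at because bisphenols can act through them. Nr2f2, an orphan receptor typical of interstitial cells, was at 6.94, 8.48 and 10.3 CPM in the BPS libraries, against 12.7, 11.3 and 10.9 CPM in the vehicle libraries (log2 change -0.46, SE 0.11, adjusted p = 0.0263). Nr2f2 passed after the length correction (adjusted p = 0.0301), but not when BPS replicate 1 or 2 or vehicle replicate 1 or 2 was left out (adjusted p = 0.156, 0.0905, 0.0536 and 0.0869). The estrogen receptors were barely expressed. Esr1 was at 1.64, 1.94 and 2.63 CPM in the BPS libraries, against 2.00, 1.83 and 1.73 CPM in the vehicle libraries, and Esr2 did not exceed 1.23 CPM with BPS and 1.502 CPM with vehicle. Their log2 changes were 0.13 (SE 0.20, adjusted p = 0.759) and -0.18 (SE 0.22, adjusted p = 0.705). Pparg and Rxra, the peroxisome proliferator and retinoid X receptors, were at 0.12 (SE 0.08, adjusted p = 0.433) and 0.12 (SE 0.06, adjusted p = 0.253).

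None of 13 tested estrogen responsive genes was called, with a list median of -0.06, and none of 8 tested genes of the aryl hydrocarbon receptor pathway, with a median of -0.0028. Over all genes tested 5.24% were called in either direction, and at that share lists this small would hold few calls or none. With length corrected 1 gene of each list was called higher, Ccnd1 at 0.12 (adjusted p = 0.0422) and Tiparp at 0.16 (adjusted p = 0.0471). Cyp1a1, the most sensitive target of that receptor, did not exceed 0.112 CPM in the BPS libraries and 0.173 CPM in the vehicle libraries, and Cyp1b1 was at 46.4, 44.2 and 40.7 CPM with BPS, against 44.6, 49.2 and 41.9 CPM with vehicle (adjusted p = 0.703). Of the G protein coupled receptors that the study named, Gpr89, Gpr161, Gprc5a, Gpr107 and Gprc5b had log2 changes of -0.09 to 0.10 (adjusted p = 0.333 to 0.747), with the bisphenol-binding estrogen receptor Gper1 at 0.314, 0.224 and 0 CPM in the BPS libraries, against 0.223, 0.311 and 0.154 CPM in the vehicle libraries, too low to test.

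Some genes of functions that hormones control in Sertoli cells were lower, in lists set beside 1.48% lower over all genes tested. Of 18 follicle stimulating hormone and cAMP response genes, 3 were lower, namely Inha, Inhbb and Star. Star, which carries cholesterol into mitochondria for steroid synthesis, was at 164, 162 and 167 CPM in the BPS libraries, against 184, 179.5 and 177 CPM in the vehicle libraries (log2 change -0.13, SE 0.03, adjusted p = 0.0251). The steroidogenic enzyme Cyp11a1 was at -0.0049 (adjusted p = 0.979). In the inhibin, activin and TGF-beta list, 3 of 21 were lower, namely Inha and Inhbb again and Ltbp2. These 2 lists and that of the Sertoli markers therefore share called genes and are not separate evidence. Ltbp2, which binds matrix microfibrils, was at 208, 196 and 214 CPM with BPS, against 233, 251 and 259 CPM with vehicle (log2 change -0.27, SE 0.04, adjusted p = 0.00308). Of 19 tested genes of the blood-testis barrier, 2 were lower. Cgn, the tight junction protein cingulin, was at 384, 391 and 409 CPM in the BPS libraries, against 450.1, 445 and 442 CPM in the vehicle libraries (log2 change -0.18, SE 0.03, adjusted p = 0.00627), and Espn, which bundles actin at the ectoplasmic specialization, was at 162, 174 and 184 CPM with BPS, against 198, 199 and 209 CPM with vehicle (log2 change -0.23, SE 0.04, adjusted p = 0.00658). The abundant barrier claudin Cldn11 was at -0.05 (adjusted p = 0.45). The medians of the hormone response, inhibin and barrier lists were -0.01, -0.04 and -0.02, beside 0.01 for all genes tested. After the length correction the counts of these 3 lists were 2, 3 and 2. Leaving out BPS replicate 1 left 0, 1 and 0, and BPS replicate 2 left 0, 1 and 2. Without vehicle replicate 1 the counts were 1, 1 and 4, and without vehicle replicate 2 they were 0, 1 and 2.

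Of 17 Notch and hedgehog genes, Notch2, the hedgehog receptor Ptch1 and the Notch target Heyl were lower at -0.15, -0.16 and -0.41 (adjusted p = 0.0252, 0.0318 and 0.0382), with none called after the length correction, nor when BPS replicate 1 or 2 or vehicle replicate 2 or 3 was left out. The lipid list held 5 lower genes of 21 tested. Over all genes tested 1.48% were lower, the share to set beside this list and the Notch and hedgehog list. Abca1, the cholesterol exporter, was at 519.9, 512 and 520.1 CPM in the BPS libraries, against 576, 599 and 626 CPM in the vehicle libraries (log2 change -0.21, SE 0.03, adjusted p = 0.00329). Abcg1, its partner in sterol export, was at 5.27, 6.69 and 6.92 CPM with BPS, against 9.69, 9.504 and 8.05 CPM with vehicle (log2 change -0.53, SE 0.11, adjusted p = 0.0145). The fatty acid synthesis genes Fasn, Acaca and Scd1 were at -0.12, -0.18 and -0.18 (adjusted p = 0.0335, 0.00932 and 0.0265). The 2 exporters were called after the length correction and the 3 synthesis genes were not. The count was 1 without BPS replicate 1, 2 without BPS replicate 2, 2 without vehicle replicate 2 and 3 without vehicle replicate 3.

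Several other lists had some higher members, set beside 3.76% higher over all genes tested. For the lactate that Sertoli cells supply, Ldha and Pgk1 of 18 genes were higher at 0.15 and 0.18 (adjusted p = 0.0156 and 0.0182), and Slc2a8, a glucose transporter, was at -0.20 (adjusted p = 0.0572). In serine synthesis and the integrated stress response, Phgdh, Psat1 and Atf4 of 21 were higher at 0.18, 0.13 and 0.11 (adjusted p = 0.00912, 0.0278 and 0.048). All 23 nuclear genes of oxidative phosphorylation had a positive log2 change with a median of 0.10, and Ndufa2, Uqcrc1, Uqcrc2 and Atp5b were called, at 0.12 to 0.20. Of 15 annexin and S100 genes 5 were higher, led by S100a10 at 0.19 (adjusted p = 0.0145) and S100a6 at 0.17 (adjusted p = 0.0211), and of 9 keratins and other intermediate filaments 3 were higher, namely Krt18, Krt8 and Lmna. Tubb6, Tagln2, Actg1 and Tpm4 were the 4 of 21 actin and smooth muscle genes called, at 0.13 to 0.17. The counts of these 6 lists, in the order given, were 2, 1, 0, 2, 1 and 1 after scaling to the upper quartile, 2, 2, 2, 2, 1 and 1 after scaling by median ratios and 2, 2, 2, 2, 3 and 5 after the length correction. No gene of them was called without BPS replicate 1. At most 2 were called in any of these lists when BPS replicate 2 or either of vehicle replicates 2 and 3 was left out, and without vehicle replicate 1 or BPS replicate 3 the counts lay between 1 and 8.

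Germ cells and other cells of the testis were measured by their markers, since the cultures started from whole tubules. Dazl, which encodes a translational regulator of germ cells, had the largest decrease among DEGs of at least 5 CPM. It was at 6.32, 5.57 and 7.83 CPM in the BPS libraries, against 9.57, 10.02 and 10.3 CPM in the vehicle libraries, with no overlap (log2 change -0.61, SE 0.11, adjusted p = 0.00658). It did not pass without BPS replicate 1 (adjusted p = 0.0598). Dazl alone was called of 11 tested spermatogonial markers (background 1.48% lower), but 10 had a negative log2 change and the median was -0.43. Without BPS replicate 3, 5 of the 11 were called. Ddx4, the germ cell helicase VASA, was at 1.88, 2.32 and 3.09 CPM with BPS, against 3.12, 4.39 and 3.66 CPM with vehicle (adjusted p = 0.0527), and Stra8, which starts meiosis, at 3.35, 3.63 and 5.09 CPM, against 6.72, 6.88 and 4.31 CPM (adjusted p = 0.0647). None of 11 tested spermatocyte markers was called (background 5.24% in either direction), with a median of -0.38. Sycp3 of the synaptonemal complex was at 1.40, 1.61 and 1.72 CPM with BPS, against 2.23, 2.28 and 2.66 CPM with vehicle (log2 change -0.59, SE 0.18, adjusted p = 0.0603).

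Summed over the spermatogonial list, the markers were at 379, 395 and 394 CPM in the BPS libraries, against 401, 396 and 381 CPM in the vehicle libraries, and nearly all of that was Uchl1. Without Uchl1 the sums were 33.8, 34.3 and 40.8 CPM with BPS, against 47.5, 50.9 and 45.6 CPM with vehicle, a log2 ratio of -0.40 with no overlap. The exact two-sided permutation test gave p = 0.1, which is the smallest p that 3 against 3 libraries allow. Spermatocyte markers without Hspa2 summed to 15.7, 12.8 and 22.0 CPM, against 17.4, 26.7 and 21.3 CPM, with overlap. Myoid markers summed to 2204, 2256 and 2133 CPM with BPS, against 2165, 2291 and 2148 CPM with vehicle, and macrophage markers to 22.0 to 24.8 CPM, against 23.9 to 26.9 CPM. Endothelial markers came to 48.1 to 50.6 CPM, against 50.3 to 55.1 CPM, and without Robo4 to 30.4 to 32.3 CPM, against 33.5 to 36.2 CPM, with no overlap. Of the 12 myoid markers 9 had a negative log2 change, and Myh11 alone was called, lower (background 1.48%). It was joined after the length correction by Mylk, which was higher at 0.15 (adjusted p = 0.0284). Leydig cell markers other than Star summed to 15.8, 16.3 and 15.5 CPM with BPS, against 16.6, 14.8 and 17.3 CPM with vehicle. The part of germ and interstitial cells in the changes of the other gene groups was not tested. The log2 ratios of the sums were -0.14 for Sertoli markers (-0.05 without Clu), -0.18 for stromal, -0.15 for macrophage, -0.11 for endothelial and -0.0024 for myoid markers.

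**Figure D4:**
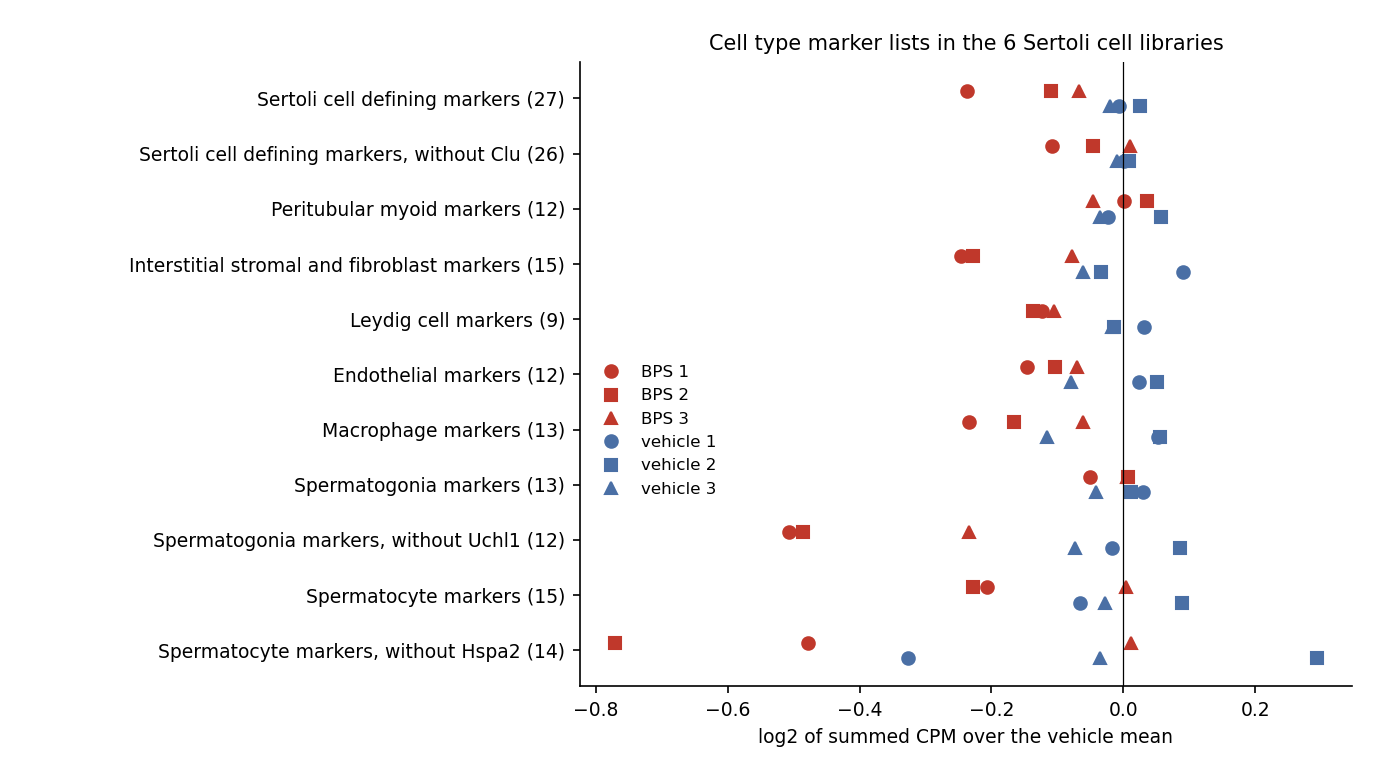
Summed CPM of the marker lists of each testis cell type in every BPS and vehicle library, drawn as log2 of the sum over the vehicle mean, with the Sertoli, spermatogonial and spermatocyte sums also shown without their most abundant member. Spermatogonial markers without Uchl1 lie lower in the 3 BPS libraries (33.8 to 40.8 CPM) than in the 3 vehicle libraries (45.6 to 50.9 CPM), whereas myoid markers overlap.

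The other large decreases were in genes of low expression. Kif1a, a motor protein of vesicle transport, was at 9.39, 10.6 and 10.01 CPM in the BPS libraries, against 14.0, 13.5 and 12.7 CPM in the vehicle libraries (log2 change -0.42, SE 0.08, adjusted p = 0.00798). Sorl1, a sorting receptor, was at 6.39, 6.39 and 8.04 CPM with BPS, against 9.39, 10.02 and 9.09 CPM with vehicle (log2 change -0.46, SE 0.10, adjusted p = 0.0174). Extl1, a glycosyltransferase of heparan sulfate, was at 4.15, 4.82 and 4.35 CPM with BPS, against 5.71, 6.05 and 6.89 CPM with vehicle (log2 change -0.48, SE 0.12, adjusted p = 0.0251). In none of the 3 did the groups overlap. Clca3a2, the kinase Map3k9 and the unnamed locus LOC108167518 were the remaining members of the 10, at -0.52, -0.43 and -0.46. Of these 10, Lama1 alone kept an adjusted p under 0.05 without BPS replicate 1.

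The response was also set against the same dose in granulosa cells, the follicle's counterpart of Sertoli cells, and in iPSCs, neither of which shares a library with the Sertoli comparison. The granulosa cells came from mice at postnatal day 20, and both had 24 h of exposure and 24 h of recovery. The iPSC libraries are those of the study's dose experiment. Its other iPSC experiment at 1 µM was not used, so iPSC values here stand for the dose experiment alone. The difference in response, Sertoli minus granulosa, passed the test for 215 of 16791 genes (1.28%), with 92 (0.548%) higher and 123 (0.733%) lower. Mitosis genes held 15 of the 92. The log2 change of Ube2c was 0.34 in Sertoli cells and -0.08 in granulosa cells, a difference of 0.41 (SE 0.06, adjusted p = 0.0014), and that of Ccna2 was 0.26 and -0.10, a difference of 0.36 (SE 0.05, adjusted p = 0.0014). All 19 mitosis genes had a positive log2 change in Sertoli cells and a negative one in granulosa cells. The list median in granulosa cells was -0.10, and 2 members were called lower there, where 2.60% of genes tested were called in either direction. In iPSCs, where that share was 4.59%, all 19 had a negative log2 change too, and Kif11 alone was called, at -0.24 (adjusted p = 0.0204 in limma). Without BPS replicate 1 of the Sertoli cells the 15 mitosis genes became 8, and 9 without vehicle replicate 2. The total became 87 and 104, and 324 without vehicle replicate 1.

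Between Sertoli cells and iPSCs, 752 of 17888 genes (4.20%) differed, 395 (2.21%) higher and 357 (2.00%) lower, and 17 mitosis genes and 7 S phase genes were among those higher. Rrm2 had a log2 change of 0.19 in Sertoli cells and -0.22 in iPSCs, a difference of 0.41 (SE 0.05, adjusted p = 0.0023). With BPS replicate 1 of the Sertoli cells left out, 258 genes and 11 mitosis genes differed. After the length correction 18 mitosis genes differed from granulosa cells and 19 from iPSCs. Lower in Sertoli cells than in granulosa cells was the response of Clu, at log2 changes of -0.26 and 0.20 (difference -0.46, SE 0.07, adjusted p = 0.00434), of Cgn, at -0.18 and 0.15 (difference -0.33, SE 0.04, adjusted p = 0.00135), and of Col1a1, at -0.22 and 0.08 (difference -0.29, SE 0.05, adjusted p = 0.00975). For ribosomal protein genes no difference passed the test in either comparison, and the list had a median log2 change of 0.09 in granulosa cells with 5 members called higher there.

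**Figure D5:**
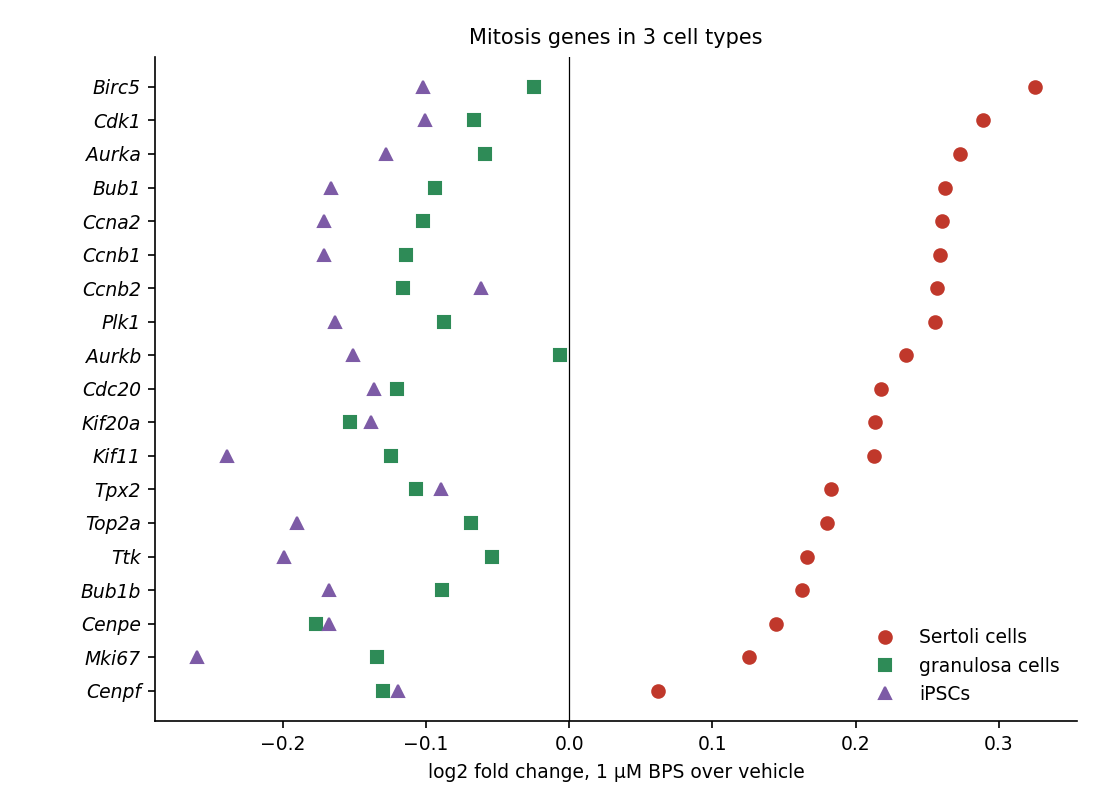
Log2 change, BPS over vehicle, of the 19 mitosis genes in Sertoli cells, granulosa cells and iPSCs (dose experiment) at 1 µM, each row a gene, with a symbol for each cell type. All 19 lie above 0 in Sertoli cells and below 0 in granulosa cells and iPSCs.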

How the data were processed

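The deposited matrix holds log2 CPM of 22186 genes in 42 libraries, which the authors made on mouse build mm10 with a small CPM of 0.0313 added before the log (a gene with no read is at -5.00). The authors used FastQC for read quality, Rsubread for alignment and counting and TMM in edgeR for scaling between libraries. The log was undone, and whole reads came back for 100% of values within 0.05 reads. The planned CPM test applied to log2 values as deposited: limma 3.58.1 in R 4.3.3 with a variance trend on the 6 Sertoli libraries, for genes of at least 0.5 CPM in at least 3 libraries, adjusted by Benjamini-Hochberg over all genes tested, with a threshold of 0.05 and no covariate. Differences in response were interaction terms fitted with the granulosa libraries or the 1 µM and vehicle iPSC libraries of the dose experiment. The script was tested on simulated data. Symbols, positions and promoters came from RefSeq (GRCm38.p6), which placed 20964 genes, and transcript lengths from GENCODE M21, which gave 18566. The length correction subtracted a loess trend (span 0.5) from each library. The members and the 53 gene lists were chosen with earlier results of these data known. Named genes were the 10 largest changes in each direction among DEGs of at least 5 CPM whose groups did not overlap, the cell markers, the stained receptors, the study's G protein coupled receptors and up to 4 members of each list by p. Other genes were named after their values were seen. Other added CPM, filters, scalings, fits and left-out libraries were tried, and the closing section gives their effect. A gene of the lists is not reported here.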

Additional observations from a re-analysis of the deposited data

Results flagged for a closer look

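The results below stand out because the response to BPS differed between cell types by the limma interaction term, given as the log2 change in Sertoli cells minus that in the other cell type.

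Against granulosa cells, 18 of the 103 genes followed one by one differed, with adjusted p of 0.00135 to 0.0459, beside 1.28% of all genes tested. Many of the 103 were picked by the size or p of their change in the same Sertoli libraries. An excess over the share of all genes is therefore partly built in, here and against iPSCs. Genes of cell division responded more positively in Sertoli cells, at a difference of 0.41 for Ube2c, 0.37 for Ccnb2, 0.36 for each of Cdk1, Ccna2 and Bub1, 0.35 for Birc5 and 0.23 for Rrm2, and the difference for Bc1 was 0.30. Of the matrix genes, 2 of 21 collagens and 1 of 16 laminin genes responded more negatively, at -0.34 for Col11a1, -0.29 for Col1a1 and -0.27 for Lamb2. Lama1 was lower in granulosa cells too (log2 change -0.17, adjusted p = 0.00203 in limma). Its difference of -0.32 did not pass (adjusted p = 0.177). Among Sertoli functions the difference was -0.46 for Clu, -0.40 for Espn, -0.33 for Cgn, -0.35 for the glucose transporter gene Slc2a8 and -0.18 for Star. Extl1 and Kif1a had a difference of -0.70 each. With BPS replicate 1 of the Sertoli cells left out 10 of the 18 passed, and with vehicle replicate 2 left out 11.

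Against iPSCs, 25 of the 103 genes differed, with adjusted p of 0.0023 to 0.0421, beside 4.20% of all genes tested. Positive differences were 0.45 for Ube2c, 0.43 for each of Birc5, Ccna2 and Bub1, 0.41 for Rrm2, 0.39 for Cdk1, 0.36 for Mcm2, 0.32 for Ccnb2 and 0.31 for the lamin gene Lmnb1. They were 0.53 for Nup37, 0.47 for Sec61g, 0.46 for Psat1, 0.44 for Phgdh, 0.24 for Shmt2 and 0.20 for Uqcrc1. Negative differences were -1.34 for Sycp3, -1.31 for Dazl, -1.15 for Anxa2, -1.04 for Nr2f2, -0.94 for Krt18, -0.90 for S100a6 and -0.84 for Extl1. They were -0.64 for Col11a1, -0.47 for Clu and -0.41 for Cgn. For Anxa2, Krt18 and S100a6 both cell types had a positive log2 change, at 0.13, 0.31 and 0.17 in Sertoli cells and 1.28, 1.249 and 1.07 in iPSCs. For Dazl the log2 change was -0.61 in Sertoli cells and 0.70 in iPSCs. With either BPS replicate 1 or vehicle replicate 2 of the Sertoli cells left out 15 of the 25 passed, and 17 with replicate number as a block.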

How the results depend on the processing

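The 820 calls ranged between 43 (without BPS replicate 1) and 1242 (without vehicle replicate 1) when a library was left out. Leave-one-out counts were 4 to 17 for mitosis, 0 to 12 for S phase, 2 to 23 for ribosomal proteins, 2 to 10 for collagens, 1 to 7 for laminins, 0 to 9 for Sertoli markers and 1 to 7 for lipid genes, and 87 to 324 and 258 to 505 for the differences from granulosa cells and iPSCs. A fit of all 42 libraries called 107 genes, with 2 of S phase, 0 of ribosomal proteins, 0 of collagens, 1 laminin, 0 Sertoli markers and 1 lipid gene. A fit with the granulosa libraries called 1284. Added CPM of 0.25, 1 and 4 called 819, 811 and 761 genes, voom weights on recovered reads 846, no filter 651 of 21464 genes and a minimum of 5 CPM 1060 of 11486. Same-numbered BPS and vehicle libraries did not deviate together (correlations -0.0902, 0.0848 and -0.0888), so the numbers do not pair the samples. With replicate number as a block 1298 genes were called, with 8 collagens and 8 lipid genes, and 312 differences from iPSCs, and after the length correction with the block 814 genes, 3 collagens and 2 laminins. The length correction, chosen after the data were seen, gave 3 collagens, 2 laminins, 2 lipid genes and 2419 differences from iPSCs. Leaving out the most abundant marker changed the log2 ratio of summed CPM to -0.0466 for Sertoli cells, -0.0345 for Leydig cells, -0.40 for spermatogonia and -0.38 for spermatocytes, beside -0.14, -0.12, -0.01 and -0.14 with it. Over 103 genes followed one by one, 1570 of the alternative values kept direction and side of the threshold, 331 lost the call, 45 gained it and 0 of the calls changed sign. The causes were not tested. Several of these fits reuse the same log2 values, and groups that do not overlap keep their sign without any library. The unchanged signs were therefore largely fixed beforehand. With 3 flasks a group, changes of this size are near what the spread allows to be called.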

Other observations

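The genes in this paragraph were chosen after their values were seen, and of their lists the myoid markers alone are described above. Over all genes tested 1.48% were called lower, the share to set beside the counts of lower genes here. The long nuclear RNAs Malat1 and Neat1, which sit at splicing speckles and paraspeckles, were lower with BPS. Of 7 tested genes in the list of ribosomal and nuclear RNA type, 2 were called lower. Malat1 was at 1319, 1435 and 1372 CPM in the BPS libraries, against 1441, 1625 and 1673 CPM in the vehicle libraries (log2 change -0.20, adjusted p = 0.019), and Neat1 was at -0.20 (adjusted p = 0.025). Of 21 tested imprinted genes, Peg10 and Plagl1 were lower at -0.20 and -0.28 (adjusted p = 0.00696 and 0.00889). Alas2, the erythroid form of the first enzyme of heme synthesis, was at 13.3, 11.8 and 15.0 CPM in the BPS libraries, against 16.4, 18.4 and 17.9 CPM in the vehicle libraries (log2 change -0.40, adjusted p = 0.0124), while the other erythroid markers in the matrix summed to no more than 0.314 CPM with BPS and 0.297 CPM with vehicle. Plat, the tissue plasminogen activator, which Sertoli cells secrete, was at 58.7, 59.4 and 73.1 CPM with BPS, against 77.7, 82.7 and 84.1 CPM with vehicle (log2 change -0.36, adjusted p = 0.00521). Myh11, the smooth muscle myosin of peritubular myoid cells, was at -0.24 (adjusted p = 0.00531), alone among 12 myoid markers. Of these 7 genes, Plagl1 alone was called without BPS replicate 1, and neither Malat1 nor Neat1 was called after the length correction (adjusted p = 0.071 and 0.347). No gene was called among the tested members of the lists for cholesterol synthesis (22), NRF2 and glutathione (24), interferon response (13), retinoid handling (15), WNT targets (10), YAP targets (14), PI3K and AKT (13), the circadian clock (17) and the lysosome (22). At the 5.24% called over all genes tested, lists of these sizes would hold few calls or none. With length corrected Pik3cb and Akt2 of the PI3K and AKT list were called higher, at 0.14 and 0.12 (adjusted p = 0.0404 and 0.0455), and no gene of the other lists.

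Reads of the ribosomal RNA and nuclear RNA type made up 0.0785% to 0.135% of each BPS library, against 0.0455% to 0.145% of each vehicle library, with vehicle replicate 3 the lowest. Rn28s1 was at 657, 397 and 653 CPM in the BPS libraries, against 720, 451 and 211 CPM in the vehicle libraries (adjusted p = 0.359).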
